A study of Mus musculus with 13 samples.

Results

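Pdk4 and Pdp1 encode opposing regulators of the pyruvate dehydrogenase complex, and both were followed through RNA sequencing of CD45-positive cells sorted from subcutaneous EL4 tumours. The 2 genes were picked by name from the 56923 gene IDs of each count table, with earlier results of these data in view. Both lie in stretches where gene names and counts were taken to match. The rule that chose them also names the contrast of knockout with vector tumours. Their values in that contrast are therefore a description, and no test of it is given for Pdk4, Pdp1 or their ratio.

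EL4 is a mouse T-cell lymphoma line. In the vector group (7 libraries) the injected EL4 cells carried a vector, and in the PSGL1_KO group (6 libraries) they carried a knockout of PSGL1, the selectin ligand that Selplg encodes. Every mouse, 6 to 8 weeks old, received 500000 cells under the skin of the right flank, and tumours were taken about 20 days later. The mouse strain, the sex, the way the knockout was made and the number of clones are not stated in the labels used here. The knockout is in the injected cells, and the sorted population can hold host leukocytes as well as EL4 cells, which are themselves of a CD45-positive lineage. Titles give replicate numbers but do not tie them to separate mice, so a p-value here speaks only of the spread among libraries, which may be technical.

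The pyruvate dehydrogenase complex turns pyruvate into acetyl-CoA inside mitochondria and so joins glycolysis to the tricarboxylic acid cycle. Pyruvate dehydrogenase kinases, of which PDK4 is one, phosphorylate the complex and switch it off. The phosphatase whose catalytic subunit is PDP1 removes the phosphate and switches it on again. Pdk4 is known as the kinase gene that fasting, fatty acids and glucocorticoids induce, and PDP1 as a phosphatase that calcium stimulates.

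Libraries held 3710817 to 5712566 counts over gene IDs, which was 10.5% to 12.5% of all reads counted. Names were read only in long stretches of chromosomes 4, 6, 15 and 18 that met conditions on length, gene levels and housekeeping genes. The stretch of Pdk4 and the stretch of Pdp1 held 1 housekeeping gene each, so that condition checked little there. Some other stretches held 0, where it could not fail and names rest on length and gene levels alone. Outside the stretches, 143 of 166 housekeeping genes were under 20 CPM, with a median of 0.464 CPM over the 166. Vector replicate 5 stood apart in its mitochondrial share, with 34.5% of gene counts on mitochondrial IDs against 10.0% to 17.8% in the other 12 libraries. Ptprc, the gene of CD45, and Selplg lie outside those stretches, so neither the sort nor the knockout could be checked from them. Libraries fall into sets by the first digit of the number in their file name. Number 3 covers vector replicates 1 and 2 and PSGL1_KO replicates 1 and 2, and number 7 covers the other 5 vector and 4 PSGL1_KO libraries. What the number stands for is not stated in the labels.

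The ID of Pdk4 (ENSMUSG00000019577.7) covers GRCm38 chromosome 6 from 5483351 to 5496309 on the minus strand, with 3511 exon bases in GENCODE M21. The ID of Pdp1 (ENSMUSG00000049225.15) covers chromosome 4 from 11958184 to 11966452, also on the minus strand, with 4507 exon bases. The exons of neither overlap another annotated gene. Because Pdk4 is the one of the pair whose level differed more between libraries, the sequence just upstream of its start is shown. It comes from RefSeq's table for GRCm38.p6, which holds 1 of the 2 members, and spans chr6:5496310-5496528 on the minus strand, 219 bases that end where the GENCODE transcript begins. The capitals mark the match to CCAAT, read here as its reverse complement ATTGG.
Pdk4 promoter: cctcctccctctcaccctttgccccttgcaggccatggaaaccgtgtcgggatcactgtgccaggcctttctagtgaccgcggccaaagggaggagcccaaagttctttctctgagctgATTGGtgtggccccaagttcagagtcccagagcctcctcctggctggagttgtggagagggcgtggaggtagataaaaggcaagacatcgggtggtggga

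Of 6 motifs searched on both strands, only CCAAT was found in this Pdk4 window, beginning 100 bases before the GENCODE start. It is a common motif, present in 30.9% of the 32851 promoters of the table over the same 219 bases. The letters GGGCGG, the GC box (28.3% of promoters), AGGTCA, a nuclear receptor half-site (12.5%), TATAAA, the TATA core (9.92%), and TGTTTAC, a forkhead core (2.8%), were not in the window. Nor was the direct repeat of AGGTCA with 1 base between the copies (0.0304%), a search that overlaps with that for the half-site. The window had 58.9% G and C, against a median of 52.1%.

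Pdk4 transcripts were scarce in vector tumours and higher, but very unequal, in PSGL1_KO tumours. Pdk4 averaged 4.05 ± 2.46 CPM (SD, n = 7) in vector and 16.4 ± 12.8 CPM (SD, n = 6) in PSGL1_KO libraries, where CPM is the count scaled to a library total of 1000000 with TMM factors. The log2 fold change (log2FC, PSGL1_KO minus vector) in the edgeR fit over all IDs was 2.02 ± 0.48 (SE), with a 95% interval from 1.01 to 3.02. Pdp1 hardly differed in level, at 35.5 ± 8.15 CPM and 38.9 ± 7.10 CPM, with a log2FC of 0.13 ± 0.18 and an interval from -0.24 to 0.50. Genes and contrast were chosen with earlier results in view, so neither interval may be read as a test of a difference. In neither gene were the groups apart: both overlapped between vector and PSGL1_KO, whereas 6.54% of all 10422 IDs tested had groups without overlap. In bulk RNA, a change in the number of cells that carry a transcript and a change in the amount per cell cannot be told apart.

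In vector replicates 1 to 7, Pdk4 had 33, 12, 10, 11, 9, 19 and 25 counts, or 8.50, 2.63, 2.41, 2.43, 2.18, 3.78 and 6.40 CPM. Replicates 1 and 7 stood at the top, and the other 5 vector libraries lay below 4 CPM. In PSGL1_KO replicates 1 to 6, Pdk4 had 50, 127, 20, 79, 173 and 26 counts, or 12.2, 34.9, 3.74, 13.3, 29.2 and 4.98 CPM. Replicates 1, 2, 4 and 5 exceeded every vector library, while replicates 3 and 6 fell inside the vector range.

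**Figure D1:**
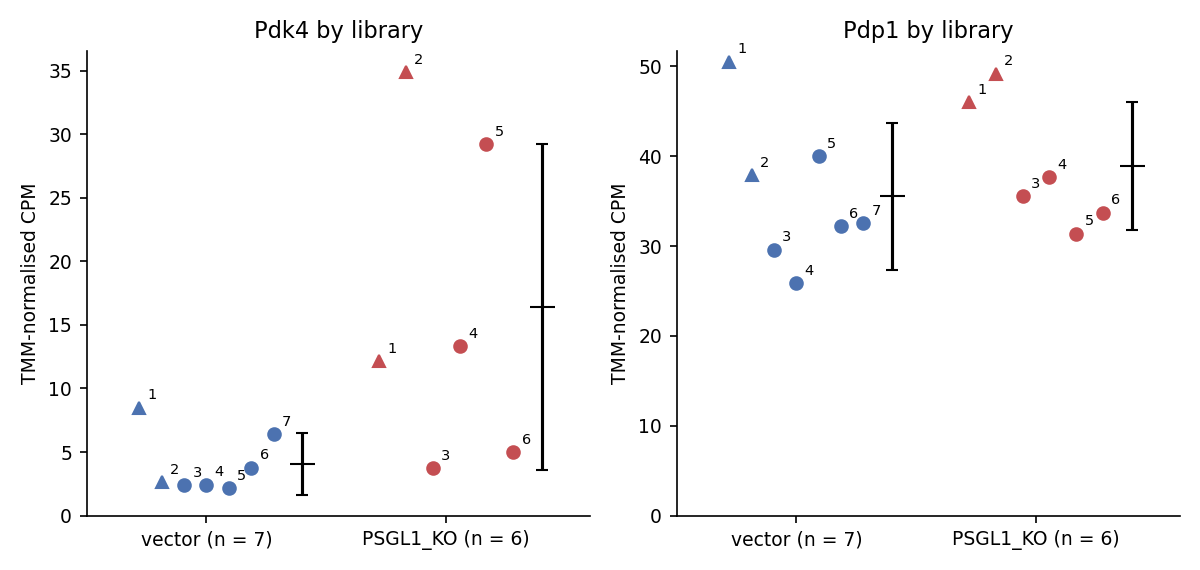
TMM-normalised CPM of Pdk4 (left) and Pdp1 (right) in each library, with the replicate number beside each point; triangles are libraries of file number 3, circles those of number 7, and the black bar is the mean with its SD. For Pdk4, 4 of 6 PSGL1_KO libraries lie above the highest vector library (8.50 CPM), and for Pdp1 none does.

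The counts behind these values limit the precision of Pdk4 in single libraries. In PSGL1_KO replicate 2 the exact 95% Poisson interval for Pdk4 was 29.1 to 41.5 CPM, and in replicate 3 it was 2.29 to 5.78 CPM. These intervals cover counting error only, since reads without molecular identifiers are not independent molecules. Among the vector libraries the intervals were wide for the level they describe, for example 0.998 to 4.15 CPM in replicate 5 and 5.85 to 11.9 CPM in replicate 1. The coefficient of variation of Pdk4 was 60.7% in vector and 78.3% in PSGL1_KO libraries, against medians of 21.7% and 25.3% over 313 name-checked protein-coding genes. Of those genes, 9 had a higher coefficient than Pdk4 in vector and 3 in PSGL1_KO libraries. Pdk4 has few counts in many libraries, which raises this coefficient, and the part of low counts in it was not tested.

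Pdp1 was steadier. Vector replicates 1 to 7 had 50.5, 37.9, 29.6, 25.9, 40.0, 32.2 and 32.5 CPM of Pdp1, on 117 to 196 counts. PSGL1_KO replicates 1 to 6 had 46.0, 49.2, 35.5, 37.7, 31.4 and 33.7 CPM, on 176 to 223 counts. All 6 PSGL1_KO libraries lay within the vector range, and the highest 3 Pdp1 values belonged to libraries of file number 3. The coefficient of variation of Pdp1 was 22.9% in vector and 18.2% in PSGL1_KO libraries, close to the medians over name-checked genes in vector and below them in PSGL1_KO. Across all 13 libraries the log2 CPM of Pdk4 and Pdp1 had a Pearson r of 0.46, and 0.40 once group means were subtracted, given as a description of libraries that share their scaling factors.

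The count ratio of Pdk4 to Pdp1 needs no library scaling, since both genes come from the same library. Per 100 counts of Pdp1, vector replicates 1 to 7 had 16.8, 6.94, 8.13, 9.40, 5.45, 11.7 and 19.7 counts of Pdk4. PSGL1_KO replicates 1 to 6 had 26.5, 71.0, 10.5, 35.4, 93.0 and 14.8. The same libraries stood out as for Pdk4 alone: PSGL1_KO replicates 1, 2, 4 and 5 were above every vector library, and replicates 3 and 6 were not. On the log2 scale, with 0.5 added to each count, the ratio averaged -3.25 ± 0.65 (SD, n = 7) in vector and -1.66 ± 1.22 (SD, n = 6) in PSGL1_KO libraries. The difference was 1.59 ± 0.53 (SE). It weights each library equally on the log scale, unlike the log2FC of the edgeR fit, and was 1.35 with 5 counts added in place of 0.5. Without vector replicate 5, the library with the high mitochondrial share, it was 1.45, and the log2FC was 1.89 for Pdk4 and 0.15 for Pdp1.

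**Figure D2:**
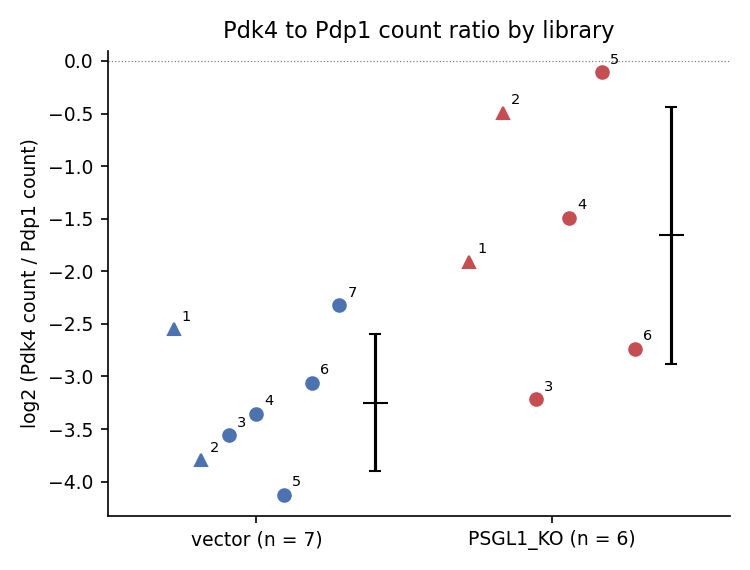
Log2 ratio of Pdk4 to Pdp1 counts in each library, with the replicate number beside each point; triangles are file number 3, circles file number 7, the black bar is the mean with its SD, and the dotted line marks equal counts. PSGL1_KO replicate 5 comes nearest to equal counts, at -0.10, and vector replicate 5 is the lowest, at -4.12.

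Per kilobase of exon, the phosphatase transcript was the more abundant one in nearly every library. Pdp1 averaged 7.88 ± 1.81 CPM per kb in vector and 8.63 ± 1.58 in PSGL1_KO libraries. Pdk4 averaged 1.15 ± 0.70 CPM per kb in vector and 4.67 ± 3.66 in PSGL1_KO libraries. PSGL1_KO replicate 5 was the exception, with 8.32 CPM per kb of Pdk4 and 6.96 of Pdp1, and PSGL1_KO replicate 2 came close, with 9.94 and 10.9. The exon lengths are those of GENCODE M21, which need not be the annotation that was counted.

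The difference in Pdk4 had the same direction in both file-number sets. Both sets are parts of the contrast named in the choice of genes, so this is a description and not a replication. Within number 3, Pdk4 stood at 8.50 and 2.63 CPM with vector and at 12.2 and 34.9 CPM with PSGL1_KO. Its log2FC there was 2.13 ± 0.37 (SE). That SE comes from 2 against 2 libraries, with a spread that edgeR moderates across IDs. It should not be read as more precise than the 0.48 of all 13 libraries. Within number 7 the log2FC of Pdk4 was 1.90 ± 0.57, and the groups overlapped there. For Pdp1 it was 0.14 ± 0.23 among libraries of number 3 and 0.10 ± 0.15 among those of number 7. The ratio difference was 1.97 ± 0.94 within number 3 and 1.40 ± 0.70 within number 7. With TMM factors taken from name-checked nuclear genes, the median log2FC of all IDs moved from -0.01 to -0.19, Pdk4 had 1.80 and the sign of Pdp1 turned, at -0.06.

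File number itself, which the choice of genes did not use, was tested with the treatment group in the model. Pdp1 was higher in libraries of number 3, by 0.46 ± 0.14 on the log2 scale (number 3 minus number 7; adjusted p = 0.00971 in edgeR's quasi-likelihood test), beside 39.8% of all IDs that passed the same test. It averaged 44.2 CPM in the 2 vector libraries of number 3 and 32.0 CPM in the 5 of number 7, and 47.6 and 34.6 CPM in the PSGL1_KO libraries. The call on Pdp1 was lost when vector replicate 1 was left out (0.38, adjusted p = 0.0594) or when name-checked nuclear genes set the scaling (0.23, adjusted p = 0.18). Pdk4 had 0.78 ± 0.51 and did not pass (adjusted p = 0.243). Leaving out PSGL1_KO replicate 5 brought Pdk4 past the threshold, at 1.21 (adjusted p = 0.0242). The log2 ratio differed by 0.40 between the numbers, with p = 0.521 in a two-sided exact permutation test over 315 arrangements within groups, whose smallest possible p is 0.00317.

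The rest of the machinery around the complex could not be read. None of the 6 genes of its subunits had a checked name, nor did any of 12 cofactor and lipoylation genes, 17 genes of pyruvate supply and use, or 13 genes of transcription factors known to act on Pdk4. Of the 7 kinases and phosphatases listed, Pdk4 and Pdp1 were the 2 with checked names. Whether another kinase or phosphatase gene offsets or adds to Pdk4 was therefore not analysed here.

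Of neighbouring energy pathways, 10 genes with checked names were tested beside Pdk4 and Pdp1, and 1 of them was called higher and 0 lower at an adjusted p below 0.05 (edgeR). Over all IDs tested, 14.5% were called, 9.02% higher and 5.49% lower. At an unadjusted p below 0.05, Decr1, Sdhaf3 and Ndufaf6 passed too, which makes 4 of 10 beside 27.7% of all IDs. The median log2FC of the 10 genes was 0.11, against -0.01 over all IDs and 0.16 over the 392 name-checked nuclear IDs. Of those 392, from which these genes come, 74 were called higher and 19 lower. With DESeq2 the count of these genes was again 1 higher and 0 lower. Calls within a file number, given below, stand beside many over all IDs. The fit within number 3 called 1312 higher and 1135 lower of 10525 IDs tested. That within number 7 called 1205 higher and 1038 lower of 10775.

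Slc25a13, the gene of the mitochondrial aspartate-glutamate carrier citrin, was the gene that passed. It lies on chromosome 6 from 6041218 to 6217173 and is the nearest tested ID above Pdk4 on the chromosome, 544.9 kb away. Its low level rose from 2.25 ± 0.39 CPM over the 7 vector libraries to 4.63 ± 1.49 CPM over the 6 PSGL1_KO libraries (log2FC 1.05 ± 0.28, adjusted p = 0.0158, edgeR). In 5 of 6 PSGL1_KO libraries it exceeded every vector library. It missed the threshold without PSGL1_KO replicate 4 (0.93, adjusted p = 0.053), when name-checked nuclear genes set the scaling (0.89, adjusted p = 0.0554), without a low-count filter (1.06, adjusted p = 0.0778) and within file number 3 (0.60, adjusted p = 0.554).

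Genes of fatty acid oxidation, a process that feeds acetyl-CoA to the cycle without the complex, gave 2 testable members. Decr1, a reductase of unsaturated fatty acid breakdown, averaged 47.5 ± 8.75 CPM with vector and 64.8 ± 24.2 CPM with PSGL1_KO (log2FC 0.44, adjusted p = 0.17). Within file number 3 Decr1 passed, with 0.76 and adjusted p = 0.00275. Amacr, a racemase of branched-chain fatty acids, had a log2FC of 0.16 with an interval from -0.18 to 0.50. Baat, Acnat1 and Acnat2 never exceeded 5 counts and were not tested.

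In the cycle itself and its carriers, Aco1, the cytosolic aconitase, averaged 171.9 ± 48.0 CPM with vector and 179.6 ± 24.8 CPM with PSGL1_KO (log2FC 0.06, adjusted p = 0.863). The sign of Aco1 turned without vector replicate 1 or 5, within file number 7 and when name-checked nuclear genes set the scaling, and within file number 3 Aco1 was called higher (0.51, adjusted p = 0.0416). Sdhaf3, an assembly factor of succinate dehydrogenase, averaged 33.7 ± 9.56 and 23.4 ± 8.59 CPM (log2FC -0.53, adjusted p = 0.148). Sdhaf3 was called lower without PSGL1_KO replicate 2 (-0.70, adjusted p = 0.0497), after adding file number as a covariate (-0.59, adjusted p = 0.00904), when name-checked nuclear genes set the scaling (-0.74, adjusted p = 0.0154) and within file number 7 (-0.70, adjusted p = 0.0166). The list of glycolysis and sugar entry gave 1 tested gene, Grhpr, a reductase of glyoxylate and hydroxypyruvate, which had -0.28 (adjusted p = 0.577). Grhpr was called lower within file number 7 (-0.39, adjusted p = 0.0493) and had 0.50 within number 3 (adjusted p = 0.0692).

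None of 4 nuclear genes of the respiratory chain passed. Ndufa4, a subunit associated with cytochrome oxidase, had a log2FC of -0.22 (adjusted p = 0.572), Cox6c, a cytochrome oxidase subunit, 0.23 (adjusted p = 0.584), and Ndufb6, of complex I, 0.07 (adjusted p = 0.815). Ndufaf6, which helps assemble complex I, averaged 35.4 ± 5.50 and 45.2 ± 7.14 CPM (log2FC 0.35, adjusted p = 0.145). Exons of Cox6c overlap Vps13b and those of Ndufb6 overlap Smim27 on the opposite strand, so each count may hold reads of its partner. Within file number 7 Ndufa4 passed (-0.46, adjusted p = 0.0111), and within number 3 Ndufb6 did (0.53, adjusted p = 0.0252), beside the calls over all IDs given above for each number. The 12 mitochondrial DNA protein genes tested gave 0 adjusted calls and 2 at an unadjusted p below 0.05 (edgeR), with a median log2FC of -0.39. Without vector replicate 5 that median was 0.02, 6 of the 12 were negative, and there were again 0 adjusted calls and 1 at an unadjusted p below 0.05.

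**Figure D3:**
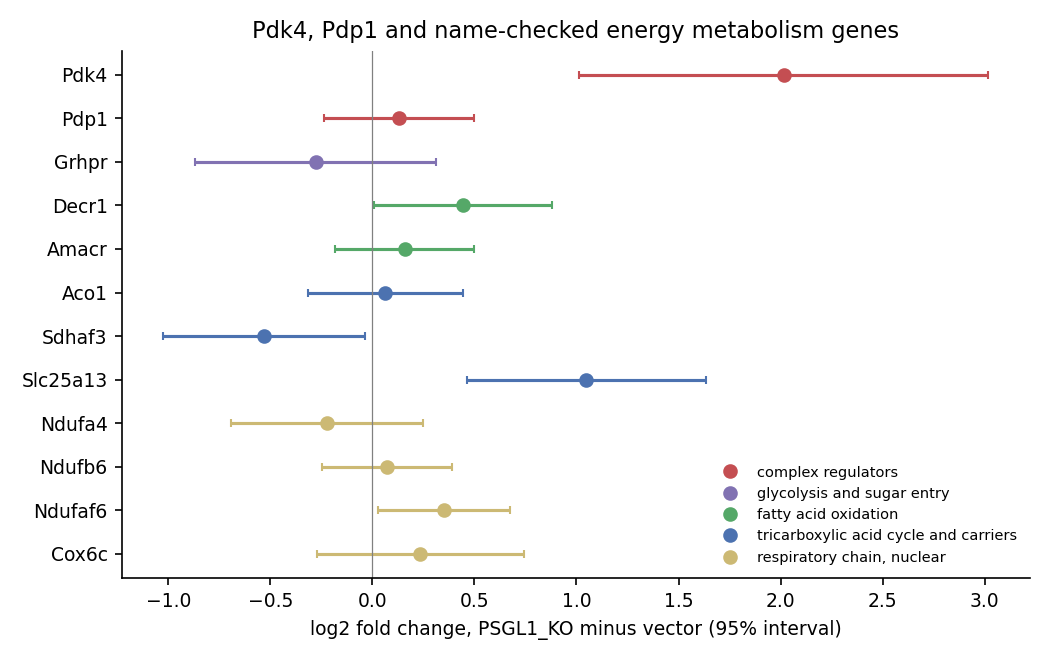
Log2 fold change (PSGL1_KO minus vector) with its 95% interval for Pdk4, Pdp1 and the 10 tested energy metabolism genes with checked names, coloured by list. Pdk4, at 2.02, has the widest interval, from 1.01 to 3.02. The intervals of Pdk4 and Pdp1 are descriptions and not tests. Slc25a13, at 1.05, is the gene outside the pair whose adjusted p was below 0.05.

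Markers of other cell types were read where their names were checked. Of 11 tested markers of fibroblasts and endothelium, 3 were higher in PSGL1_KO (Svep1, Sdc2 and Tfpi2) and 0 lower, beside 9.02% of all IDs and 18.9% of the 392 name-checked nuclear IDs called higher. Their 12 name-checked members summed to 832.7 to 2440 CPM in vector and 929.1 to 4468 CPM in PSGL1_KO libraries. Most of this sum was on average 1 gene, Col1a2, so it mainly follows that gene. Col1a2 had 1428 ± 536 CPM with vector and 2617 ± 1209 CPM with PSGL1_KO, and did not pass (adjusted p = 0.0833, edgeR). PSGL1_KO replicate 3, the lowest of its group in Pdk4, was also the lowest in this sum, at 929.1 CPM, and vector replicate 5 was lowest in both among the vector libraries. Other libraries departed from that order. PSGL1_KO replicate 6 had 3637 CPM of these markers and 4.98 CPM of Pdk4. PSGL1_KO replicate 4 had the highest sum, 4468 CPM, with 13.3 CPM of Pdk4, and vector replicate 3 had 2385 CPM with 2.41 CPM of Pdk4.

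Of 5 myeloid and B-cell markers, 4 were higher in PSGL1_KO (Lyn, Cd72, Tfec and Atp6v0d2), beside the same 9.02% and 18.9%, and the sum was 104.5 to 234.5 CPM in vector and 518.1 to 816.4 CPM in PSGL1_KO libraries. That sum did not overlap between the groups, and Pdk4 did. The markers were listed with earlier results of these data known, so the separation of their sum is only a description. Taken singly, 6.54% of all IDs tested had groups without overlap. In PSGL1_KO replicates 1 to 6 the sum was 535.0, 518.1, 565.8, 816.4, 699.5 and 599.6 CPM. Pdk4 had 12.2, 34.9, 3.74, 13.3, 29.2 and 4.98 CPM in the same order. Muscle and fat are tissues in which Pdk4 is known to be abundant. Of their name-checked markers, Musk had at most 4 counts and Aqp7, the glycerol channel of adipocytes, at most 9 counts in any library. Tpm2, a tropomyosin of muscle and stroma, averaged 54.6 ± 22.5 CPM with vector and 94.8 ± 73.9 CPM with PSGL1_KO (log2FC 0.80, adjusted p = 0.14). The sum of the 2 name-checked muscle markers was nearly all Tpm2. It was highest in PSGL1_KO replicate 5, at 239.7 CPM beside 29.2 CPM of Pdk4. PSGL1_KO replicate 2, the highest in Pdk4 at 34.9 CPM, had a muscle sum of 57.7 CPM. Of 4 T-cell markers, Bach2 was higher and Sit1 lower (5.49% of all IDs were called lower), and the sum was 433.6 to 606.4 CPM in vector and 362.7 to 556.9 CPM in PSGL1_KO libraries. Exons of Cd72 overlap Tesk1, those of Bach2 overlap Bach2os and those of Tox overlap Gm11802 on the opposite strand, so these counts are uncertain. The part of these cell types in the Pdk4 difference was not tested.

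**Figure D4:**
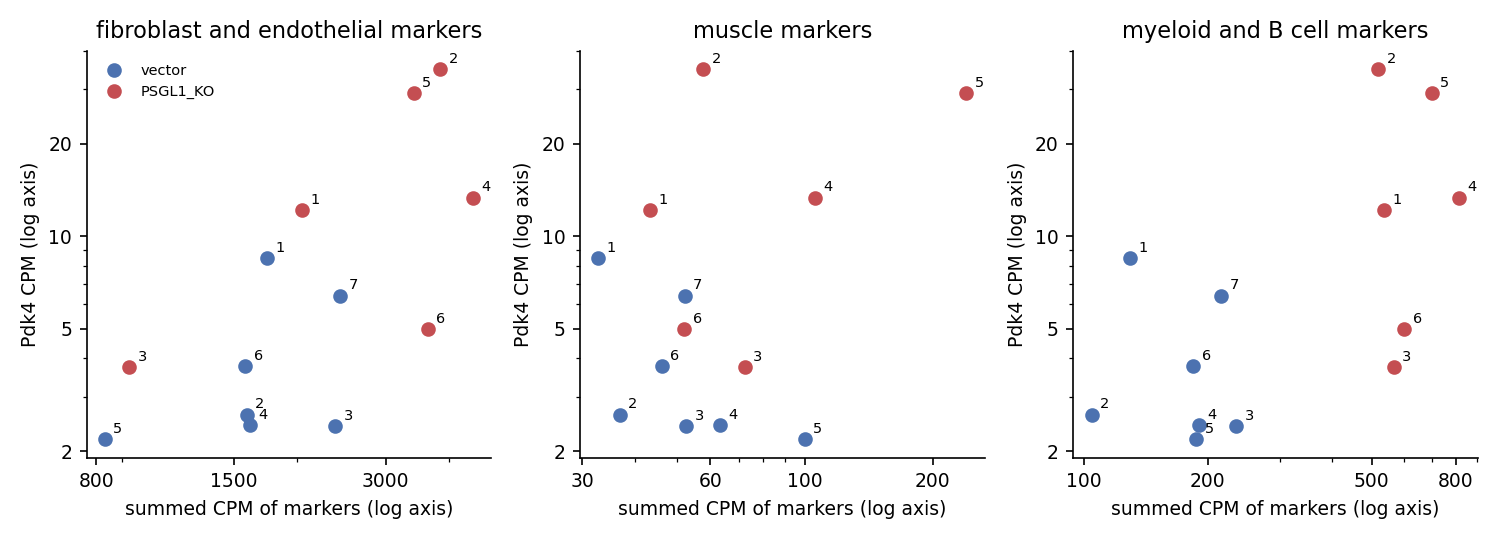
Pdk4 CPM against the summed CPM of name-checked markers in each library, on log axes, for fibroblast and endothelial (left), muscle (middle) and myeloid and B-cell markers (right), with replicate numbers. Myeloid and B-cell marker sums separate all PSGL1_KO libraries (518.1 CPM or more) from all vector libraries (234.5 CPM or less), and Pdk4 does not. The markers were listed with earlier results of these data known. Col1a2 makes up most of the left sum on average, and Tpm2 nearly all of the middle one.

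The genes whose log2 CPM most resembled that of Pdk4 over the 13 libraries were sought among 257 name-checked protein-coding genes with a mean of at least 20 CPM. They were Glipr2, a Golgi-associated protein gene (Pearson r 0.89), Mdfic, a transcriptional regulator (0.89), Tmem64, of the endoplasmic reticulum (0.88), March6, a ubiquitin ligase (0.88), and B4galt1, a galactosyltransferase (0.87). After group means were subtracted r was 0.79, 0.89, 0.79, 0.77 and 0.82 in that order. Mdfic thus followed Pdk4 as closely among libraries of a group as over both groups. Mdfic averaged 39.4 ± 5.66 CPM with vector and 88.6 ± 20.3 CPM with PSGL1_KO. These r values are the highest of many and share libraries and scaling, so they carry no p.

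Pdp1 resembled other genes. Among 256 candidates the highest r values belonged to Mpp7, a polarity scaffold (0.93), Mtdh, metadherin (0.90), Ccnc, cyclin C (0.90), 2610301B20Rik (0.90) and Thoc1, of the mRNA export complex THO (0.90). After group means were subtracted r was 0.89 to 0.92, and like Pdp1 these 5 genes had small log2FC, from 0.16 to 0.25. Exons of Ccnc overlap Tstd3 and those of Thoc1 overlap Usp14 on the opposite strand, so their counts are uncertain. No gene was among the 5 most alike for both Pdk4 and Pdp1.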

How the data were processed

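Each of the 13 libraries has a deposited table of raw counts per gene ID. The submitters' processing notes name HISAT2, SAMtools, HTSeq and mm10; no versions, annotation or strand mode are given there. A table lists 56923 IDs and 5 HTSeq summary rows, which were left out (reads over no feature were 67.3% to 75.4% of the total). Symbols and coordinates came from GENCODE M21 by ID without version. Names were read only in stretches set, once the data were known, by a 2-state hidden Markov model over mean CPM of protein-coding genes (limits 2, 20 and 100 CPM, posterior above 0.99, at least 5 Mb and 20 genes, no housekeeping gene under 20 CPM), in 2 pieces on chromosome 4. The piece that holds Grhpr, Tpm2, Cd72, Sit1 and Svep1 had 0 housekeeping genes, as had the stretch of Mpp7 and Thoc1. The housekeeping limit could therefore not fail for these genes. Mitochondrial IDs lack the whole check.

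Fits used edgeR 4.0.16 in R 4.3.3 (quasi-likelihood test, robust, TMM, filterByExpr, group as the term, two-sided, Benjamini-Hochberg over 10422 IDs, threshold 0.05), with DESeq2 1.42.0 as an alternative. Members, gene lists and tests were chosen with earlier results of these data known. Named genes were Pdk4, Pdp1, all tested pathway genes with checked names, nearest tested neighbours, and the 5 genes most alike by Pearson r of log2(CPM + 0.5).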

Additional observations from a re-analysis of the deposited data

How the results depend on the processing

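Pdk4 stayed higher in PSGL1_KO under every alternative run, at 1.80 on the log2 scale when name-checked nuclear genes set the scaling. With 1 library left out it had 1.66 to 2.30, lowest without PSGL1_KO replicate 2 and highest without vector replicate 1. These runs refit the values of the contrast named in the choice of genes. They describe how far the estimate moves and are no test of a difference. Leaving out a library gave 0.06 to 0.23 for Pdp1 and 1.28 to 1.90 for the log2 ratio difference, which was 1.35 with 5 counts added. Scaling on name-checked nuclear genes reversed Pdp1, to -0.064, and changed calls over all IDs from 940 higher and 572 lower to 605 and 1089. With file number as a covariate these were 1435 higher and 1254 lower. Within number 7 they were 1205 higher and 1038 lower of 10775 IDs, and within number 3 they were 1312 and 1135 of 10525. Leaving out a library gave 753 to 1034 higher and 428 to 607 lower.

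Of pathway genes, 0 were called higher without a low-count filter or when name-checked nuclear genes set the scaling, and 3 within file number 3; 1 was called lower with that scaling and with file number as a covariate, and 3 within number 7. Leaving out a library gave 0 to 1 in each direction, 0 higher without PSGL1_KO replicate 4 and 1 lower without PSGL1_KO replicate 2. Signs turned for genes that had not passed: with scaling on name-checked nuclear genes Amacr had -0.038, Aco1 -0.12 and Ndufb6 -0.12; within number 7 Amacr had -0.0080, Aco1 -0.050 and Ndufb6 -0.083; within number 3 Grhpr had 0.50 and Ndufa4 0.0085; and Aco1 ranged from -0.021 to 0.13 with a library left out, negative without vector replicate 1 (-0.015) or 5. The cause was not tested.

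For file number, Pdp1 had 0.42 without a low-count filter, 0.23 with scaling on name-checked nuclear genes, 0.49 within vector and 0.44 within PSGL1_KO, and did not pass in any of these 4; leaving out a library gave 0.38 to 0.57. Leaving out a library gave 0.38 to 1.21 for Pdk4. Within vector Pdk4 was removed by the low-count filter. The ratio differed by 0.04 to 0.75 with a library left out and by 0.32 with 5 counts added, a choice made after seeing the data.

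Same-numbered libraries of the groups did not deviate together throughout (r from -0.02 to 0.63 over 6 pairs, and 2 of 6 matched best with their own number), so the numbers were not taken as pairs. With the replicate block Pdk4 had 1.94, Pdp1 0.14 and the ratio 1.75, calls lower over all IDs were 881 and pathway genes called lower were 1 (Sdhaf3, -0.56). File number could not be fitted with that block, since replicates 1 and 2 are number 3 in both groups.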

Other observations

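The nearest tested IDs around the pair on the chromosome gave other patterns. Pon2, a paraoxonase gene 184.9 kb below Pdk4, averaged 111.8 ± 15.8 CPM with vector and 101.1 ± 18.8 CPM with PSGL1_KO (log2FC -0.14, adjusted p = 0.587, edgeR). Gem, a small GTPase gene 243.4 kb below Pdp1, averaged 46.1 ± 4.06 and 45.7 ± 8.82 CPM (log2FC -0.02, adjusted p = 0.957). The noncoding ID Gm11842, 61.1 kb above Pdp1, rose from 3.53 ± 1.51 to 7.50 ± 1.58 CPM (log2FC 1.08, adjusted p = 0.0165), and 5 of 6 PSGL1_KO libraries exceeded every vector library. Among 26 sets of values (Pdk4, Pdp1, their log2 ratio and the 10 pathway genes in each group), 0 had a library standing apart by Dixon's criterion.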
